A study of Mus musculus with 12 samples.

Results

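The genes described here are 8 mouse genes of aldehyde and retinoid metabolism: Aldh3a1, Aldh2, Aldh1a1, Aldh1a2, Aldh1a3, Adh1, Rdh10 and Dhrs7, out of 19057 genes with a probe on the array. They were chosen by measured values, since Aldh3a1 and Adh1 were lower in ligated arteries of saline mice. Every value of these genes in a comparison of ligated with unligated arteries is therefore a description and carries no test, and so is the difference between such values of the 2 arms. All 14 probes annotated to the 8 genes were read, and 10 probes of 7 genes passed the filter on dim probes. Aldh1a2 did not pass.

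RNA was flushed with Qiazol from the lumen of carotid arteries of male C57Bl6 mice, labelled as endothelial-enriched, and measured on Illumina bead arrays. Age was 9 weeks per the sample labels, whereas the series text gives a younger range. The left carotid artery (LCA) had 3 of its 4 caudal branches ligated, which leaves low, oscillating flow in that vessel, and the right artery (RCA) of the mice was not operated on. The 12 samples formed 4 groups of 3: 5Aza LCA and 5Aza RCA, from mice given 5-aza-2'-deoxycytidine (5Aza) at 0.2 mg/kg/day by intraperitoneal injection, and saline LCA and saline RCA, from mice given saline. Injections ran for 3 weeks, ligation was done after 2 weeks, and arteries were taken 7 days after it. Each sample pooled 3 arteries, no group held sham-operated arteries, and side and ligation cannot be told apart. Samples are numbered as in their titles, and p-values measure only the spread between these pools.

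Alcohol dehydrogenases and short-chain dehydrogenases oxidise alcohols to aldehydes, and aldehyde dehydrogenases oxidise aldehydes to acids. Along the retinoid branch, retinol is first oxidised to retinaldehyde by enzymes such as RDH10 and then irreversibly to retinoic acid by ALDH1A1, ALDH1A2 and ALDH1A3. Retinoic acid binds nuclear receptors that act with retinoid X receptors on target genes. Other members of the family, among them ALDH2 and ALDH3A1, clear aldehydes formed when lipids are oxidised. 5Aza is built into DNA, where it traps the methyltransferases that methylate cytosine in CpG.

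Of the 7 genes tested, 2 passed between 5Aza LCA and saline LCA, Adh1 and Dhrs7, where 0.462% of all genes tested were called. That comparison shares the saline LCA values on which Adh1 was picked, so its calls are not independent of the choice. The 250 bases before the transcription starts of Adh1 and Dhrs7 are printed because CpG is where the drug's target enzymes act, and capitals mark each CpG. Both are from RefSeq on build GRCm38.p6, chr3:138277335-138277584 on the plus strand for Adh1 and chr12:72664829-72665078 on the minus strand for Dhrs7, written 5′ to 3′ along the gene.
Adh1: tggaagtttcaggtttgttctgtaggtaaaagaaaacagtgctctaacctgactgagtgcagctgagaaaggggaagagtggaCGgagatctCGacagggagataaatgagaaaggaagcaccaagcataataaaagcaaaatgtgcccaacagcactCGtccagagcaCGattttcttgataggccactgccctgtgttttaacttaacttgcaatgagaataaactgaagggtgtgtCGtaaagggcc
Dhrs7: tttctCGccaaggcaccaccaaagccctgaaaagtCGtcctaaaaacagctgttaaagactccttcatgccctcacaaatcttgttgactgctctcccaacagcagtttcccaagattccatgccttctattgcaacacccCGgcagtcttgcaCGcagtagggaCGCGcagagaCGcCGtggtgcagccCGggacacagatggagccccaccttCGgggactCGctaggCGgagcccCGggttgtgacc
The Adh1 window held 5 CpG at 44.8% G and C, and 49.6% of the 32851 promoter windows in the table held at most as many. The Dhrs7 window held 13 CpG at 57.2% G and C, at or above the count of 70.6% of windows. Over all windows the median was 6 CpG. Aldh1a2 had 40 CpG, a count that 98.9% of windows did not exceed, and the windows of Aldh1a1 at its 2 starts had 3 and 1. Further motifs were searched on both strands. Neither printed window held the TATA box letters TATAAA (12.4% of windows hold them), the nuclear receptor half-sites AGGTCA (14%) or GGGTCA (11.6%), the antioxidant response letters TGACNNNGC (10.2%) or the GC box GGGCGG (32.7%). The Dhrs7 window held GCGTG, the core of the xenobiotic response element, 1 time, 98 bases before the start, and 28.2% of windows hold it. These matches are letters in a window, and methylation was not measured on these arrays. Promoters of Aldh3a1, Aldh1a3, Aldh2 and Rdh10 were not analysed here.

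Detection ranged over 21443 to 23251 of 45281 probes on an array, and the test covered 10596 genes. Saline LCA varied most: across genes, the correlation of saline LCA 1 was 0.857 with saline LCA 2 and 0.856 with saline LCA 4, while that of saline LCA 2 with saline LCA 4 was 0.971. Within the other groups, correlations were 0.935 to 0.959. Some results resting on saline LCA are therefore also given without saline LCA 1, and the others include it. Endothelial markers were present in every sample, with 16 to 18 of 18 detected. The mean log2 level of the 17 tested was 8.60 to 8.90 in 5Aza LCA, 8.97 to 9.14 in 5Aza RCA, 8.78 to 8.88 in saline LCA and 8.95 to 9.22 in saline RCA. Macrophage markers also moved with ligation, with values given beside the ligation results. Levels here are background-corrected, quantile-normalised log2 intensities of 1 probe per gene, and levels of different genes are not compared. In RNA flushed from the lumen, which holds a mix of cells, fewer cells of a type and less RNA per cell cannot be told apart.

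Aldh3a1, which oxidises medium-chain and aromatic aldehydes, lies at chr11:61208510-61218418 (GRCm38.p6) and had 1 probe, detected on all 12 arrays. Its log2 level was 8.49, 8.28 and 8.37 in 5Aza LCA, against 9.28, 9.69 and 9.50 in 5Aza RCA. It was 7.44, 5.97 and 5.11 in saline LCA, against 9.29, 9.24 and 9.72 in saline RCA. Ligated samples lay below unligated samples in both arms without overlap, and every 5Aza LCA sample lay above every saline LCA sample. Group means were 8.38 ± 0.10 for 5Aza LCA, 9.49 ± 0.21 for 5Aza RCA, 6.18 ± 1.18 for saline LCA and 9.42 ± 0.27 for saline RCA (SD, n = 3 each). From high to low the order was 5Aza RCA, saline RCA, 5Aza LCA and saline LCA, and only the unligated pair overlapped. The ligated minus unligated difference was -1.11 under 5Aza (2.16-fold lower) and -3.24 under saline (9.45-fold lower). The raw intensities show how near to background the lowest samples were: 353.0 to 387.7 in 5Aza LCA and 645.8 to 932.2 in 5Aza RCA, and 266.4, 129.0 and 101.5 in saline LCA against 700.3 to 851.5 in saline RCA, with array medians of 83.8 to 88.9. The saline difference was -3.87 without saline LCA 1 and -2.36 without background correction.

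Aldh2, the mitochondrial enzyme that oxidises acetaldehyde, lies at chr5:121566027-121593824 and had 1 probe, detected on every array. Its log2 level was 9.93, 10.35 and 10.22 in 5Aza LCA, against 10.37, 10.47 and 10.68 in 5Aza RCA. It was 9.81, 9.44 and 9.49 in saline LCA, against 10.33, 10.41 and 10.27 in saline RCA. Its group means had the same order as those of Aldh3a1, with ligated samples below unligated ones in both arms, in a narrower range. The differences were -0.34 under 5Aza and -0.76 under saline. Over the 12 samples the levels of Aldh3a1 and Aldh2 had a Pearson correlation of 0.91, a description in which the points share groups and arrays.

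Of the 3 retinaldehyde dehydrogenases, none was well above background on all arrays. Aldh1a2 (chr9:71215789-71296243) had 2 probes, neither detected on any array, with raw intensities of 79.5 to 87.0 and 76.0 to 83.8. Aldh1a1 (chr19:20492583-20643463), with 1 probe, was detected on 3, 3, 0 and 1 arrays of 5Aza LCA, 5Aza RCA, saline LCA and saline RCA. Its log2 level was 5.28, 4.55 and 5.29 in 5Aza LCA, 4.73, 5.59 and 4.96 in 5Aza RCA, 4.45, 4.33 and 4.20 in saline LCA, and 4.26, 4.45 and 5.02 in saline RCA. Ligated and unligated samples overlapped in both arms. Aldh1a3 (chr7:66390892-66427477) had 3 probes, of which 1 passed the filter, 1 was detected on 2 arrays and 1 on none. The probe that passed read 4.52, 4.57 and 5.17 in 5Aza LCA against 4.93, 5.69 and 4.69 in 5Aza RCA, and 4.36, 6.93 and 6.13 in saline LCA against 4.46, 4.71 and 4.88 in saline RCA. Saline LCA 2 and 4 stood above all other samples, whereas saline LCA 1 was the lowest of all and was not detected. The saline difference of 1.12 was 1.84 without saline LCA 1.

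Adh1, the class I alcohol dehydrogenase, oxidises ethanol and retinol and lies at chr3:138277585-138290698. Its brighter probe, detected on every array, read 10.44, 10.36 and 10.04 in 5Aza LCA, against 9.85, 10.20 and 9.89 in 5Aza RCA. It read 9.49, 8.51 and 8.78 in saline LCA, against 9.78, 9.81 and 10.18 in saline RCA. All saline LCA samples lay below all others, and the other 3 groups overlapped each other. Group means were 10.28 ± 0.21 in 5Aza LCA, 9.98 ± 0.19 in 5Aza RCA, 8.93 ± 0.51 in saline LCA and 9.93 ± 0.22 in saline RCA (SD, n = 3 each). The ligated minus unligated difference was 0.30 under 5Aza and -1.0 under saline (-1.28 without saline LCA 1). The second probe gave 0.25 under 5Aza and -0.94 under saline.

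Rdh10, the retinol dehydrogenase of the first oxidation step, lies at chr1:16105882-16132550 and was dim, detected on 3, 1, 3 and 1 arrays of 5Aza LCA, 5Aza RCA, saline LCA and saline RCA. Its log2 levels ran from 4.33 to 4.85 over all samples. The differences were 0.31 under 5Aza, without overlap, and -0.02 under saline, with overlap.

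Dhrs7, a short-chain dehydrogenase/reductase, lies at chr12:72650353-72664828 and had 3 probes, all detected on every array. The brightest read 6.62, 6.90 and 6.79 in 5Aza LCA, against 6.37, 6.50 and 6.32 in 5Aza RCA. It read 5.46, 5.96 and 5.76 in saline LCA, against 6.56, 6.81 and 6.59 in saline RCA. By this probe ligated samples lay above unligated ones under 5Aza (0.37) and below them under saline (-0.93, and -0.48 without background correction). The 3 probes did not read alike. Probe 2 gave -0.06 under 5Aza and -0.71 under saline, and probe 3 gave -0.33 under 5Aza and -0.26 under saline.

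**Figure D1:**
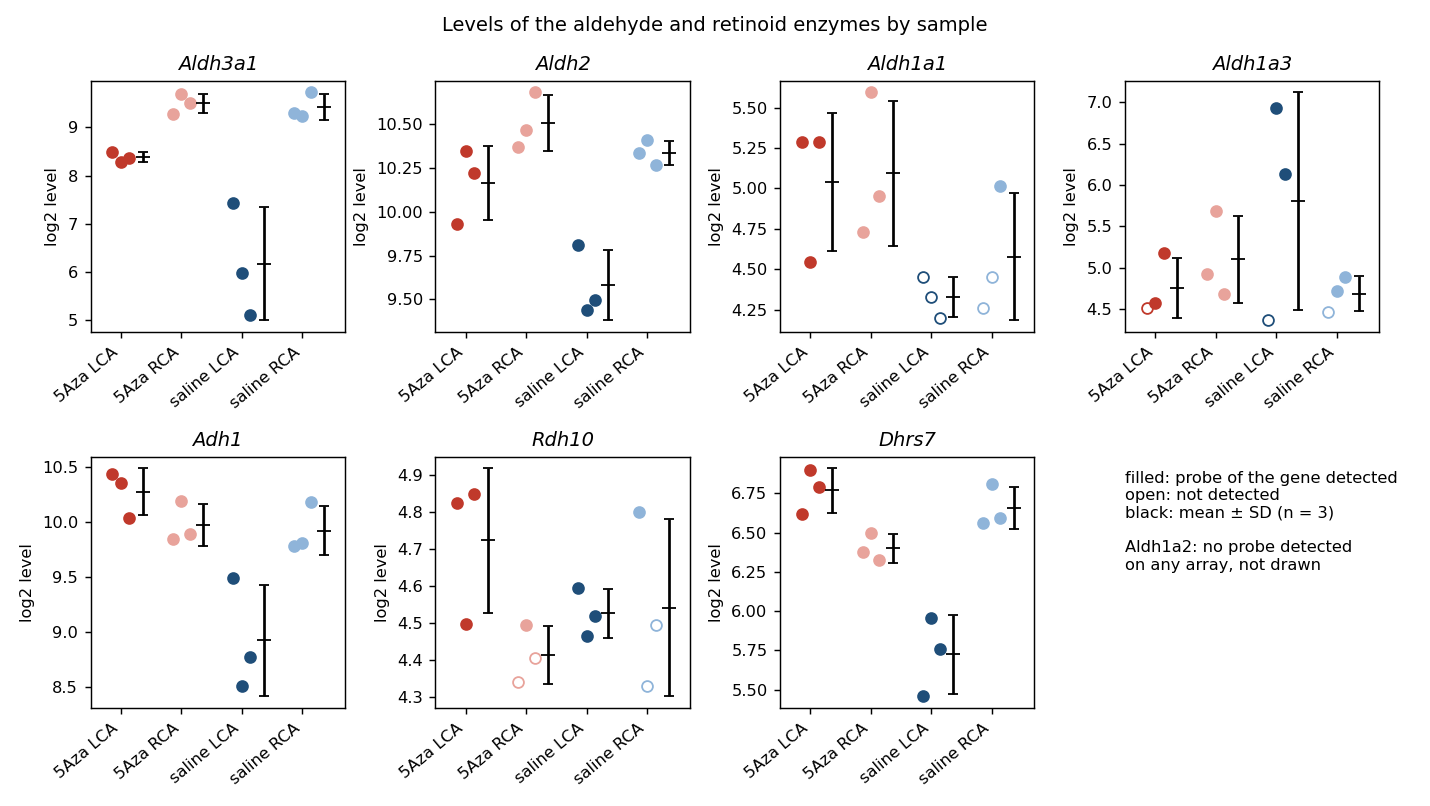
Log2 level of each gene in each sample, 1 panel per gene, with the 4 groups along the horizontal axis. Open circles are samples in which no probe of the gene was detected, and bars are mean ± SD (n = 3). Saline LCA lies below the other groups for Aldh3a1, Aldh2, Adh1 and Dhrs7, and each panel has its own axis range.

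**Figure D2:**
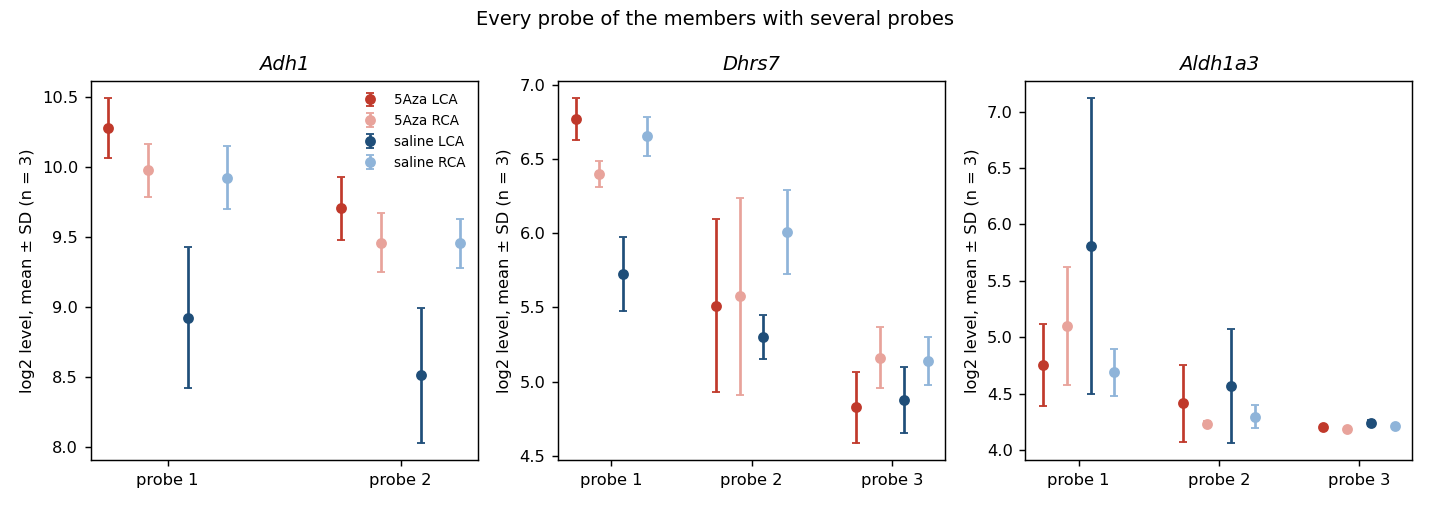
Mean ± SD (n = 3) of the log2 level for every probe of Adh1, Dhrs7 and Aldh1a3, by group. Both Adh1 probes put saline LCA lowest. Of the Dhrs7 probes, probe 1 separates 5Aza LCA from saline LCA, and probes 2 and 3 do not.

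Of the 7 genes that passed the filter, 2 (Aldh3a1 and Aldh2) were lower in every 5Aza LCA sample than in any 5Aza RCA sample, against 12.2% of all genes tested, and 2 (Rdh10 and Dhrs7) were higher without overlap, against 10.9%. Under saline, 4 (Aldh3a1, Aldh2, Adh1 and Dhrs7) were lower in every saline LCA sample than in any saline RCA sample, where 16.4% of all genes were. The genes were picked on this effect, Rdh10 passed the filter on dim probes only through the ligated groups, and nothing is read from the counts. The median difference over the 7 genes was -0.05 under 5Aza and -0.76 under saline, beside -0.02 and -0.05 over all genes tested. Aldh1a2, the eighth, has no value in these counts.

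**Figure D3:**
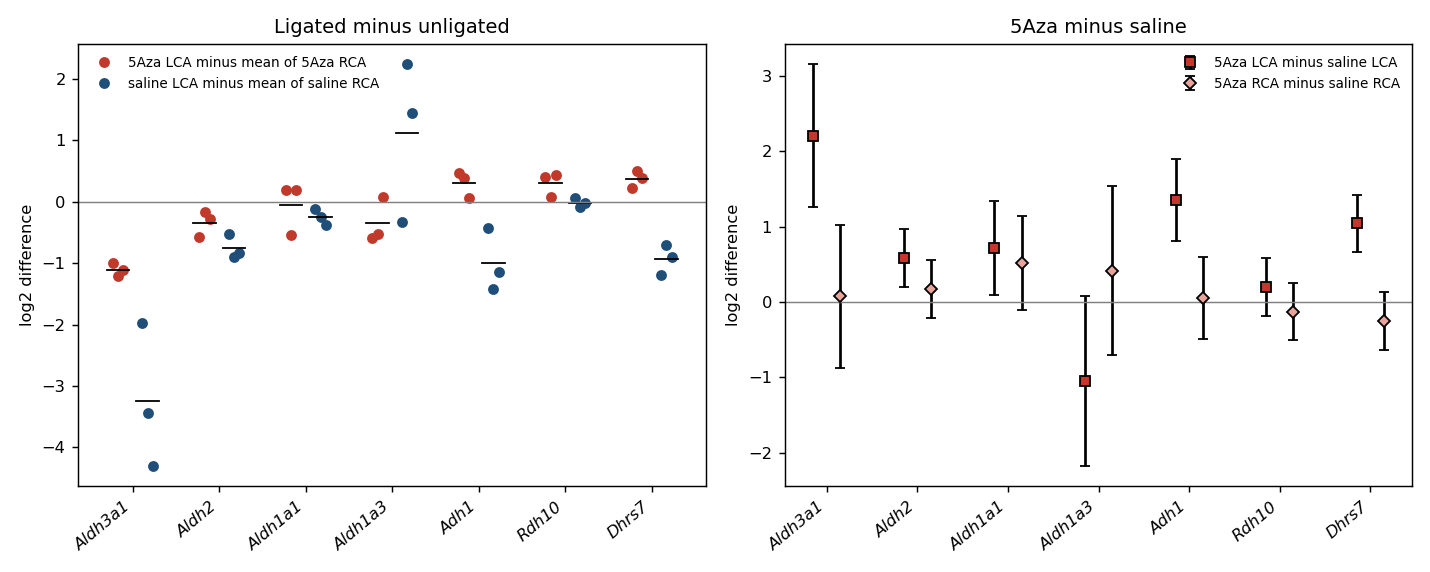
Left, log2 level of each ligated sample minus the mean of the unligated samples of its arm, with a bar at the mean of 3. Right, log2 differences 5Aza minus saline within LCA and within RCA, with 95% confidence intervals. Adh1 and Dhrs7 lie above 0 in all 5Aza LCA samples and below 0 in all saline LCA samples, and in the right panel the LCA differences of Aldh3a1, Aldh2, Adh1 and Dhrs7 exceed the RCA ones.

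Markers of other cells in the flushed RNA moved with the same samples. The mean log2 level of the 10 macrophage markers tested, of 14, was 6.89 to 7.91 in 5Aza LCA and 4.64 to 5.86 in 5Aza RCA. It was 7.31 to 9.40 in saline LCA and 4.25 to 5.39 in saline RCA. Between 9 and 12 of the 14 were detected per array in 5Aza LCA, 4 to 9 in 5Aza RCA, 10 to 13 in saline LCA and 0 to 6 in saline RCA. Limma called 2 of the 10 higher in 5Aza LCA than in 5Aza RCA (median 2.23) and all 10 higher in saline LCA than in saline RCA (median 3.83). Endothelial markers had medians of -0.32 and -0.43 in these comparisons, with 1 and 5 of 17 lower and values from -1.58 (Icam2) to 1.15 (Flt1) under saline.

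The mean level of fibroblast markers separated the ligated arms the other way, although single markers moved in both directions with ligation. Under 5Aza limma called 1 of 10 lower and 0 higher, with values from -1.64 (Mfap5) to 2.37 (Lum). Under saline 3 of 10 were called lower and 0 higher, with values from -3.00 (Mfap5) to 1.13 (Lum). The mean log2 level of all 10 adventitial fibroblast markers was 7.84 to 8.11 in 5Aza LCA, 6.72 to 7.51 in 5Aza RCA, 5.90 to 7.25 in saline LCA and 6.48 to 7.37 in saline RCA. Over the 12 samples Aldh3a1 had a Pearson correlation of -0.90 with the macrophage level and 0.49 with the fibroblast level, and Adh1 of -0.57 and 0.84. These are descriptions over samples that share groups and arrays. Smooth muscle markers (8 of 10 tested) ranged from 5.96 to 6.51 in 5Aza LCA and from 6.54 to 6.78 in saline LCA. Of the Schwann cell list only Ncam1 was tested. Its level was 5.58 to 6.28 in 5Aza LCA, 6.57 to 7.46 in 5Aza RCA, 4.37 to 6.26 in saline LCA and 6.03 to 7.26 in saline RCA. The ligated minus unligated difference of Ncam1 was -1.12 under 5Aza (limma adjusted p = 0.386) and -1.44 under saline (limma adjusted p = 0.0747), and its correlation was 0.87 with Aldh3a1, 0.80 with Aldh2 and 0.71 with Adh1. The 4 adipocyte markers tested, of 10, averaged 7.29 to 9.37 in 5Aza LCA, 5.49 to 6.89 in 5Aza RCA, 5.18 to 5.38 in saline LCA and 4.84 to 6.47 in saline RCA, and their level had a correlation of 0.61 with Dhrs7 and 0.52 with Adh1. Of 7 mesothelial markers at most 1 was detected on an array. The part of these cell types in the levels of the enzymes was not tested.

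**Figure D4:**
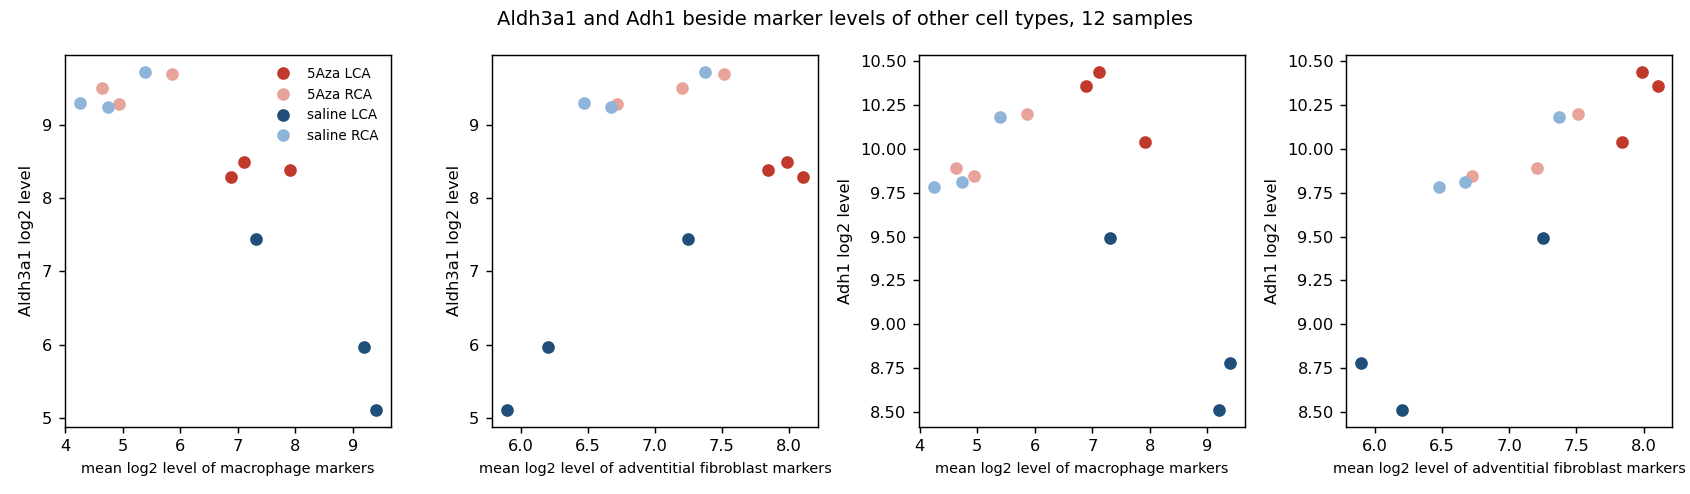
Log2 level of Aldh3a1 (left pair) and Adh1 (right pair) against the mean log2 level of macrophage and of adventitial fibroblast markers, 1 point per sample, coloured by group. Saline LCA 2 and 4 have the highest macrophage levels (9.20 and 9.40) and the lowest Aldh3a1 levels, and 5Aza LCA has the highest fibroblast levels.

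Whether these genes differed between drug-treated and saline mice in the ligated artery was asked by comparing 5Aza LCA with saline LCA. Adh1 rose by 1.35 (SE 0.25, 95% interval 0.81 to 1.90, limma adjusted p = 0.0478) and Dhrs7 by 1.04 (SE 0.18, 0.66 to 1.43, adjusted p = 0.0322), 2 of 7 genes, where 0.462% of all genes tested were called. In both genes all 3 samples of 5Aza LCA lay above all 3 of saline LCA. The fibroblast marker level was 7.84 to 8.11 in 5Aza LCA and 5.90 to 7.25 in saline LCA, and the adipocyte marker level was 7.29 to 9.37 in 5Aza LCA and 5.18 to 5.38 in saline LCA. Neither overlapped, and their part in these calls was not tested. Aldh3a1 had the largest difference of the 7, 2.21 (1.26 to 3.16), and missed the threshold (limma adjusted p = 0.0556). Its difference was 1.45 without background correction and 1.68 without saline LCA 4. Aldh2 (0.58, 0.20 to 0.97, limma adjusted p = 0.125) was likewise higher without overlap, as was Aldh1a1 (at least 1.49-fold, limma adjusted p = 0.215), which no saline LCA array detected. Aldh1a1 passed the filter on dim probes only through the 5Aza groups, where it was higher, so its difference is not independent of the filter. Aldh1a3 (-1.05, -2.18 to 0.07, limma adjusted p = 0.298) and Rdh10 (0.20, limma adjusted p = 0.568) overlapped between the groups. Higher levels without overlap were seen in 10.3% of all genes tested. This comparison uses the same saline LCA samples that led to the choice of Aldh3a1 and Adh1, so its calls are not independent of that choice.

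The calls rested on few arrays. With 1 array left out, Adh1 was called in 1 of 12 limma fits (without saline LCA 1: 1.64, adjusted p = 0.00039) and Dhrs7 in 2 of 12 (without saline LCA 1, with 0.91 and adjusted p = 0.00362, and without 5Aza RCA 3). Over all alternatives the difference of Adh1 ran from 1.15 to 1.64 and its adjusted p from 0.00039 to 0.315. Without saline LCA 1, 5 of the genes passed in limma: Aldh3a1 (2.84, adjusted p = 4.66e-05), Aldh2 (0.70, adjusted p = 0.0179) and Aldh1a3 (-1.77, adjusted p = 0.00464) as well as Adh1 and Dhrs7. In that fit 2051 of the 10596 genes tested were called, against 49 with all arrays, so the rise in calls was not particular to these enzymes. The second Adh1 probe gave 1.19 in a limma fit over all 21979 probes kept, adjusted p = 0.0772, beside 0.0572 for the first probe in the same fit and 0.191% of probes called. The call of Dhrs7 rested on 1 of its 3 probes: the others gave 0.21 (limma adjusted p over probes 0.799) and -0.05 (0.933), beside 0.0431 for the first, and the mean of the 3 gave 0.40.

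In the unligated artery the drug's effect on these genes was not detectable. Of the 7 genes, 0 were called between 5Aza RCA and saline RCA, as were 0% of all genes tested by limma, with 0 of the 7 and 604 of all genes at an unadjusted p under 0.05. The difference was 0.08 for Aldh3a1 (95% interval -0.87 to 1.03) and 0.05 for Adh1 (-0.49 to 0.60). Aldh1a1 stood at 0.52 (-0.11 to 1.14) and Dhrs7 at -0.25, the only gene of the 7 whose groups did not overlap, where 13.6% of all genes did not. The value of Aldh1a1, which passed the filter on dim probes only through the 5Aza groups, is not independent of that filter.

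The difference between the ligation effects of the arms, the 5Aza difference minus the saline difference, contains the saline values on which Aldh3a1 and Adh1 were picked. For the 8 enzymes it is therefore a description with no test. It was 2.13 for Aldh3a1, 1.30 for Adh1, 1.30 for Dhrs7, 0.41 for Aldh2 and -1.47 for Aldh1a3. Without saline LCA 1 it was 2.76 for Aldh3a1, 1.58 for Adh1, 1.17 for Dhrs7 and -2.19 for Aldh1a3. By Dhrs7 probe 2 it was 0.65 and by probe 3 it was -0.07. Over all genes tested, limma called 0% for this interaction, with 1009 at an unadjusted p under 0.05.

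Around the 8 enzymes, 100 further genes of aldehyde and retinoid handling were listed by role, of which 94 had a probe and 47 were tested. Under 5Aza 0 of the 47 passed in limma, with 11 at an unadjusted p under 0.05, and 0.453% of all genes passed. In saline arteries 5 of the 47 fell with ligation and 0 rose, where limma called 6.24% of all genes lower and 5.29% higher. The 5 were spread over 5 of the 8 lists, 1 in each. Among them, Aox2 passed the filter on dim probes only through saline RCA, the group where it was higher. The median difference of the 47 was 0.03 under 5Aza and -0.13 under saline.

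Among aldehyde dehydrogenases outside the 8, 1 of 7 tested fell. Aldh4a1, a mitochondrial enzyme of proline breakdown, was at 6.61 ± 0.36 in saline LCA and 7.71 ± 0.26 in saline RCA (SD, n = 3 each), a difference of -1.10 (SE 0.27, limma adjusted p = 0.0272). Among other alcohol and retinol dehydrogenases 1 of 10 fell. Adh7, the class IV enzyme that oxidises retinol and ethanol, read 9.93, 8.36 and 8.56 in saline LCA, against 9.96, 10.18 and 10.14 in saline RCA. Saline LCA 1 lay just below the unligated samples and the other two lay far below them. The difference was -0.17 under 5Aza (limma adjusted p = 0.880) and -1.14 under saline (limma adjusted p = 0.0491). It was -1.63 without saline LCA 1, the only 1 of 12 fits with an array left out that kept the call.

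Of 12 aldo-keto and carbonyl reductases, which reduce aldehydes and ketones, Cbr2 stood at -0.80 under 5Aza (limma adjusted p = 0.198) and fell by 0.85 under saline (limma adjusted p = 0.0437). Of 6 aldehyde oxidases and glutathione transferases, Aox2, an aldehyde oxidase, was at 4.57 ± 0.29 in saline LCA, on 2 of 3 arrays, and 5.58 ± 0.49 in saline RCA (SD, n = 3 each), a difference of -1.01 (limma adjusted p = 0.046) that was -0.37 without background correction. Aox2 passed the filter on dim probes only through saline RCA, the group where it was higher, so its call is not independent of the filter. With an array left out, the call of Aldh4a1 was kept in 7 of 12 fits and lost without saline LCA 2 or 4 or any saline RCA array. That of Cbr2 was kept in 3 fits and that of Aox2 in 2, the fit without saline LCA 1 among them. Over all alternatives the limma adjusted p ran from 0.00806 to 0.0894 for Aldh4a1, from 0.00262 to 0.165 for Cbr2 and from 0.00593 to 0.170 for Aox2.

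On the retinoid side, Rarg, the gamma receptor of retinoic acid, was the 1 of 4 receptors that fell. It read 6.08, 6.08 and 5.71 in 5Aza LCA against 6.07, 5.69 and 6.13 in 5Aza RCA, and 5.16, 5.25 and 5.19 in saline LCA against 5.91, 6.57 and 6.03 in saline RCA. Saline LCA stood below the other groups, which overlapped. The difference was -0.01 under 5Aza (limma adjusted p = 0.989) and -0.98 under saline (SE 0.21, limma adjusted p = 0.0188), -0.43 without background correction, a call kept in 9 of 12 fits with an array left out and lost without saline LCA 2, saline LCA 4 or saline RCA 2. Of 4 retinoic acid target genes 0 passed in either arm. Rarb, itself a receptor and a target, stood at -0.74 under saline (limma adjusted p = 0.118), detected on 2 of 3 saline LCA arrays. The catabolism genes of the list had no member above the filter. The interaction of these 47 genes gave 0 calls in limma, with 9 at an unadjusted p under 0.05.

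Genes of retinoid uptake, storage and binding gave 0 calls of 5 in either ligation comparison. Cd36, a scavenger receptor that takes up fatty acids, averaged 8.05 ± 0.79 for 5Aza LCA against 4.98 ± 1.15 for 5Aza RCA (SD, n = 3 each), where 1 of 3 arrays detected it, a difference of 3.07 that missed the threshold (limma adjusted p = 0.0678) and passed without saline LCA 1 (adjusted p = 0.0205). Cd36 passed the filter on dim probes only through the ligated groups, where it was higher, so neither result is independent of the filter. Adipocytes and macrophages also express Cd36, and the adipocyte marker level was 7.29 to 9.37 in 5Aza LCA and 5.49 to 6.89 in 5Aza RCA. Their part was not tested. Aldh3b1 stood at 1.27 under 5Aza (limma adjusted p = 0.055), and at adjusted p = 0.0267 without saline LCA 1. The smallest p under 5Aza in the other lists belonged to Adh5 (-0.40), Ptgr2 (0.91), Rxrb (-0.20), Rarres2 (1.18) and Xdh (at least 1.34-fold higher in 5Aza LCA, not well above background on any 5Aza RCA array), with limma adjusted p from 0.175 to 0.764. Xdh too passed the filter on dim probes only through the ligated groups, where it was higher, so its difference is not independent of the filter.

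**Figure D5:**
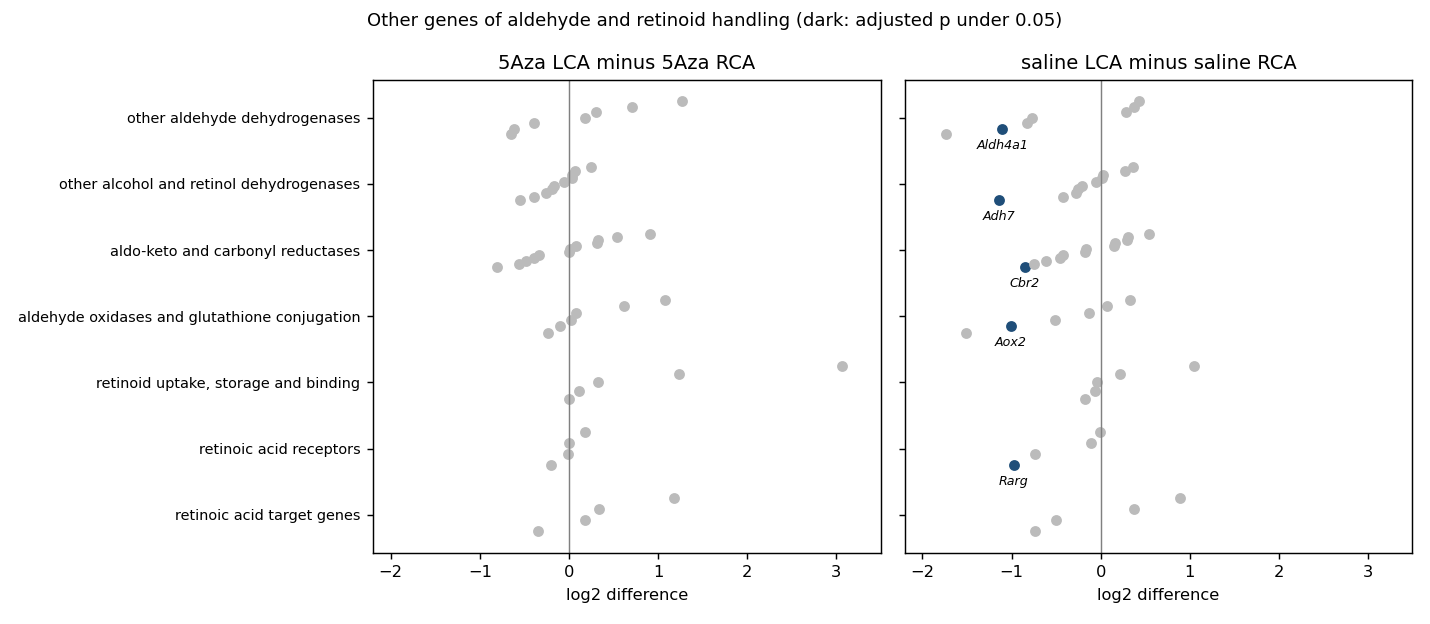
Log2 differences ligated minus unligated for the 47 further genes tested, by list, under 5Aza (left) and under saline (right). Points are genes, with dark ones past an adjusted p of 0.05 in limma, and Rarb appears in the lists of receptors and of targets. The 5 called genes, 1 each in 5 lists, all lie below 0 in the saline panel.

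Between 5Aza LCA and saline LCA 1 of the 47 passed, in a comparison where 0.293% of all genes were called higher. Rbp4, the plasma carrier of retinol, read 5.87, 6.37 and 6.72 in 5Aza LCA, against 5.00, 4.33 and 4.27 in saline LCA, where 1 of 3 arrays detected it. It rose by 1.79 (limma adjusted p = 0.0443), by 0.75 without background correction, and kept the call in 3 of 12 fits with an array left out (without saline LCA 1, 5Aza RCA 3 or 5Aza RCA 4). With no filter on dim probes 0 of the further genes passed in this comparison. Rbp4 passed the filter only through 5Aza LCA, the group where it was higher, so its call is not independent of the filter. Rbp4 was named after its values were seen. Adipocytes also make this carrier, and the mean log2 level of the 4 adipocyte markers tested was 7.29 to 9.37 in 5Aza LCA and 5.18 to 5.38 in saline LCA. Their part in the difference was not tested. Between 5Aza RCA and saline RCA 0 of the 47 passed in limma, with 2 at an unadjusted p under 0.05.

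The genes whose levels over the 12 samples were most like Aldh3a1, by Pearson correlation among 10595 others, were Rfk (0.98), a riboflavin kinase, Ephx1 (0.98), the microsomal epoxide hydrolase, Cgnl1 (0.98), a junction protein, Pam (0.98), a peptide amidating enzyme, and Calcrl (0.97), a receptor for adrenomedullin. Those most like Adh1 were Clec3b (0.97), which is also in the fibroblast marker list, Plscr4 (0.96), Yipf6 (0.95), the matrix protein gene Prelp (0.94) and the vitamin transporter gene Slc5a6 (0.94). Between the enzymes themselves, Adh1 had a correlation of 0.81 with Aldh3a1, 0.73 with Dhrs7 and -0.73 with Aldh1a3.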

How the data were processed

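Gene expression was measured in 12 samples on Illumina bead arrays. Per the file headers, the authors' non-normalised table gives each probe in each sample a deposited intensity with a detection p-value. Values were exported with GenomeStudio 2010.3, per the submitters' processing notes. A second deposited table holds the authors' normalised intensity on a linear scale and served as an alternative.

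From the unprocessed intensities, background was corrected with limma's neqc (version 3.58.1, R 4.3.3, offset 16), followed by quantile normalisation and log2. Of 45281 probes, 34885 carried 1 symbol, 18 several and 10378 none. Probes were kept (21979) where all 3 samples of any group had a detection p under 0.05, and the brightest stood for each of 10596 genes. Limma fitted 1 mean per group to all 12 samples, with Benjamini-Hochberg adjustment over all genes and calls at adjusted p under 0.05, two-sided. The pipeline was tested on simulated data. Genes not well above background in a whole group are given as "at least N-fold". The series text speaks of 2 microarrays. The samples on each are not given in the sources used here and no term for them was fitted, and the number of arrays limits precision.

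The member genes and lists were chosen with earlier results of these data known. In each further list the called genes were named, or else the gene with the smallest p. Samples of equal number were checked for pairing: correlations of their deviations from group means were 0.056, 0.047 and 0.033 under saline and 0.018 and -0.028 under 5Aza. For samples of unequal title number they were -0.0669 to 0.0227 under saline, all lower, and -0.0284 to 0.0475 under 5Aza. These values do not settle whether the samples were paired, and the sources used here do not say whether equal numbers mark the same mice. The main fit did not pair samples. Alternatives covered background correction, scaling, filter, probe choice, variance prior, array weights, samples in the fit, a replicate block and leaving out each array.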

Additional observations from a re-analysis of the deposited data

Results flagged for a closer look

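Adh1, and Dhrs7 by its brightest probe, were flagged because their ligation differences had opposite signs in the drug arms in every sample. The rule was applied only to the members and the named further genes. The share of all genes that meet it was not computed, so nothing is read from it. For Adh1 each 5Aza LCA sample lay above the mean of 5Aza RCA (0.46, 0.38 and 0.06, 0.30 on average), but these groups overlapped. Each saline LCA sample lay below the mean of saline RCA (-1.0 on average). The difference between the arms was 1.30. Adh1 was picked for its low value in ligated saline arteries, which is part of this difference, so the value is a description and the difference was not tested. Both Adh1 probes gave these signs, and the second probe's difference between the arms was 1.19.

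For Dhrs7 the brightest probe gave 0.37 under 5Aza and -0.93 under saline, and the difference between the arms was 1.30, likewise not tested. The opposite signs were not seen with its other probes. Probe 2 gave -0.06 under 5Aza and -0.71 under saline, a difference of 0.65, and probe 3 gave -0.33 under 5Aza and -0.26 under saline, a difference of -0.07.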

How the results depend on the processing

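The differences of the members mostly kept their direction, whereas the number of genes past the threshold moved with most settings. Counts below are in the order median scaling between arrays, no filter on dim probes, only the compared groups in the fit, array weights, replicate block by title numbers and replicate block by description numbers. Of the 47 further genes, 5 passed between saline LCA and saline RCA, and 2, 1, 0, 14, 2 and 2 did under these settings, 8 with a trended robust variance prior and 0 to 12 with an array left out. Of all 10596 genes tested 1221 passed there, and 883, 616 (of 19057), 129, 3743, 702 and 1085 did under these settings. The count was 1537 with that prior and 179 to 3114 with an array left out, so it moved over all genes as well. Between 5Aza LCA and saline LCA, 2 members passed, and 0, 1, 0, 5, 0 and 1 did under these settings, 0 when probes had to be detected on all 12 samples, and 0 to 5 with an array left out. For the further genes 1 passed there, against 0, 0, 0, 11, 0 and 0, with 0 for detection on all 12 samples and 0 to 10 with an array left out. Over all genes 49 passed there, against 37, 20, 0, 2254, 0 and 21, with 1 for detection on all 12 samples and 0 to 2051 with an array left out. Between 5Aza LCA and 5Aza RCA 0 of the further genes passed, against 1 without background correction, 1 from the authors' normalised table, 2 with the variance prior, 2 with array weights, 1 with the replicate block by title numbers and 0 to 2 with an array left out. Over all genes 48 passed there, against 57, 58, 78, 156, 13 and 4 to 286 in the same order. For the interaction, where 0 of the further genes passed, array weights gave 3 of them, and leaving out an array gave 0 to 3, the upper value without saline LCA 1. For the members the interaction carries no test, since it contains the saline values that chose the genes. Their counts between 5Aza LCA and saline LCA also draw on those values. Over all genes the interaction gave 847 calls with array weights and 1016 without saline LCA 1. Between 5Aza RCA and saline RCA no setting moved the counts of 0 for the members and the further genes. The cause of these shifts was not tested, other than fewer samples or fewer genes tested where the setting itself sets that.

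Signs turned for differences near 0 between the unligated groups, for Aldh1a1 and for Rdh10, and for larger ones of Dhrs7 with another probe or the mean of its probes. Between 5Aza LCA and 5Aza RCA, Dhrs7 stood at -0.0091 with the mean of its probes, against 0.37. Aldh1a1 ran from -0.24 to 0.30 there over all alternatives. Between saline LCA and saline RCA, Rdh10 ran from -0.12 to 0.11. Between 5Aza RCA and saline RCA, Aldh3a1 stood at -0.10 and Adh1 at -0.13 with the replicate block by title numbers, and leaving out an array gave -0.023 to 0.23 and -0.058 to 0.18, with -0.23 to 0.0017 for Rdh10. The interaction of Aldh1a1 ran from -0.026 to 0.45 with an array left out. Dhrs7 probe 3, a fit chosen after seeing the data, gave -0.049 between 5Aza LCA and saline LCA, where the brightest probe gave 1.04 and was called. It gave -0.074 for the interaction, against 1.30, and 0.024 between 5Aza RCA and saline RCA, against -0.25. The replicate block rests on sample numbers, and the sources used here do not say whether equal numbers mark the same mice. The interaction has no value with only the compared groups, and Aldh1a1, Aldh1a3, Rdh10, Aox2 and Rbp4 have none with detection on all 12 samples. With 1 array left out, the remaining pair was assumed to vary like the other groups. Dim probes (Aldh1a1, Aldh1a3, Rdh10) limit what the arrays can show for these genes.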
